A study of Homo sapiens and Rattus norvegicus with 26 samples.

Results

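The response to fluid shear stress was compared between 2 human models of the blood–brain barrier (BBB), hBMEC-like cells and hCECs. For each gene, the log2 change from low to high shear in hBMEC-like cells was set against that in hCECs, as a single interaction term fitted jointly over 12 of the 26 libraries of the series. The 12 libraries were 3 of hBMEC-like cells at high shear, 3 of hBMEC-like cells at low shear, 3 of hCECs at high shear and 3 of hCECs at low shear. High shear was 12 dyne/cm2, and the sample labels give 0.1 dyne/cm2 for low shear, a value that differs from that in the methods of the study. Flow was applied for 72 h in both models. Both models came from IMR90-4, a single line of human induced pluripotent stem cells (iPSCs) without any transgene stated, and the replicates are separate differentiations of that line, so no second genetic background was measured.

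hBMEC-like cells are made from iPSCs through a retinoic acid step and form a tight barrier. hCECs are made from endothelial progenitors selected by CD34 or CD31 under CHIR99021, a GSK3 inhibitor that activates Wnt signaling, and hCEC chips received this inhibitor, VEGF and FGF2 at both levels of shear. The medium of the hBMEC-like chips under shear held none of these. The difference between models therefore cannot be told apart from that between their media. The interaction is positive where the change with shear was more positive in hBMEC-like cells and negative where it was more positive in hCECs, which includes genes that went opposite ways.

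Endothelial cells sense laminar flow at their surface and through junctional complexes, and the best known outcome is the induction of the transcription factors KLF2 and KLF4, which turn on vasoprotective genes such as NOS3 and THBD. Flow also lowers matricellular and YAP/TAZ target genes in many endothelial cells, and at the BBB the Wnt pathway, with its nuclear factor LEF1, maintains the brain-specific program of junctions and transporters.

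The labelled identities were set against markers first. The summed level of 12 pan-endothelial markers was 78.3 to 88.1 CPM (the reads of a gene per 1000000 counted) in hBMEC-like cells at high shear and 87.7 to 104 CPM at low shear, against 14030 to 14800 CPM in hCECs at high shear and 10130 to 14630 CPM at low shear. The sum of 14 epithelial markers ran the other way, with 12860 to 15060 CPM in hBMEC-like cells at high shear and 11620 to 13710 CPM at low shear, against 50.6 to 76.6 CPM in hCECs at high shear and 83.8 to 139 CPM at low shear. The defining endothelial gene PECAM1, an adhesion molecule of endothelial junctions, was between 0 and 0.235 CPM in every hBMEC-like library, and CLDN5, the main claudin of brain endothelium, between 0 and 0.165 CPM. Other endothelial genes were present at lower levels than in hCECs, such as CDH5, the cadherin of endothelial junctions, with 31.1 to 47.7 CPM in hBMEC-like cells against 1372 to 2695 CPM in hCECs. The sum of 12 brain endothelial markers, CLDN5 among them, overlapped between models. It was 1918 to 2535 CPM over the hBMEC-like libraries and 1111 to 2606 CPM over the hCEC libraries. Its members differed in direction. CLDN5 was higher in hCECs, whereas SLC7A5 was at 1049 to 1689 CPM in hBMEC-like cells against 1.84 to 17.6 CPM in hCECs. The hBMEC-like name is kept here as that of the model. The sum of 9 mesenchymal markers, COL1A1 and COL3A1 among them, was 9137 to 10110 CPM in hBMEC-like cells at high shear and 8271 to 8625 CPM at low shear, against 25.2 to 252 CPM over the hCEC libraries.

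Total counts ranged from 26297516 to 38604498 in the hBMEC-like libraries and from 9790999 to 32225360 in the hCEC libraries. The shallowest was hCEC low-shear replicate 2, and it stood apart from the rest. It held counts for 36388 genes, whereas the other hCEC libraries held counts for 20072 to 20519, and 12447 genes had counts in it and in no other hCEC library. These genes took 2.92% of its counts. Its pan-endothelial sum was the lowest of the hCEC libraries (10130 CPM) and its sums for mesenchymal markers (252 CPM) and 8 blood markers (45.7 CPM, against 4.11 to 9.13 CPM in the other hCEC libraries) were the highest. The part of these differences in the interaction was not tested as a cause, and counts that move most with the library are given with and without its pair.

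**Figure D1:**
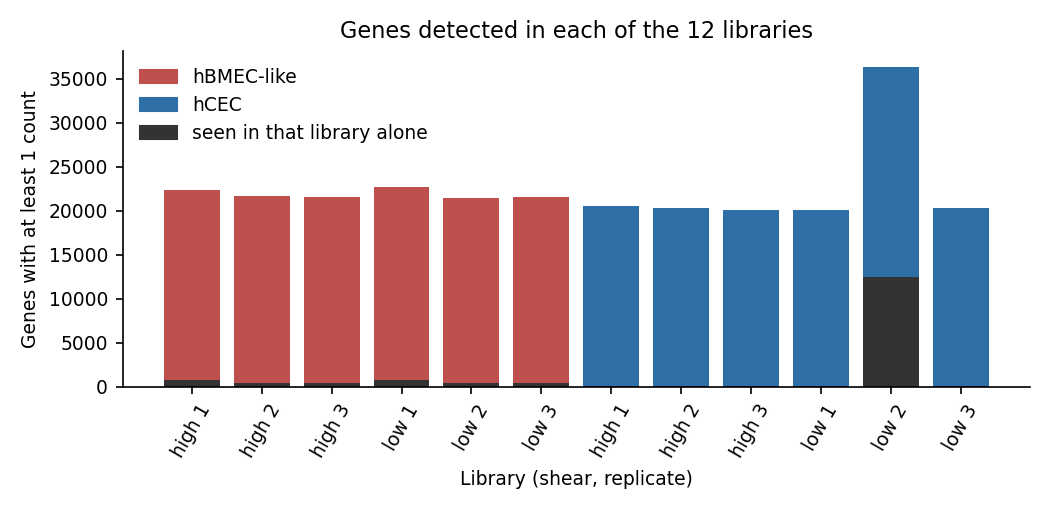
Genes with at least 1 count (vertical axis) in each library (horizontal axis, hBMEC-like in red, hCEC in blue), with the genes seen in no other library of the same model in dark grey. hCEC low-shear replicate 2 reached 36388 genes, and 12447 of them had counts in no other hCEC library.

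Of 18049 genes tested, 565 had a more positive shear change in hBMEC-like cells (3.13%) and 254 a more negative one (1.41%), at an adjusted p under 0.05. The difference was over 2-fold for 507 and 138 of them, and for 322 and 422 without hCEC replicate 2. Within the models, fitted separately, shear raised 1349 (8.2%) and lowered 1114 (6.77%) of 16452 genes in hBMEC-like cells, and raised 305 (2.04%) and lowered 179 (1.2%) of 14969 genes in hCECs. The hBMEC-like changes were many and small, with a median size of 0.26 on the log2 scale among called genes and 43 rises and 38 falls over 2-fold. The hCEC changes were fewer and larger, with a median size of 1.03 and 163 rises and 94 falls over 2-fold (0.71, 482 and 250 without hCEC replicate 2). Counts of called genes do not compare the strength of the response between models, since the biological coefficient of variation was 0.0589 in hBMEC-like cells and 0.383 in hCECs.

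Without the hCEC pair of replicate 2, the interaction was called for 1055 genes in the positive (5.83%) and 974 in the negative direction (5.38%) of 18101. The hCEC coefficient of variation was then 0.0923, and shear raised 1168 (7.83%) and lowered 993 (6.66%) of 14909 genes in hCECs. All 254 negative interactions were called again, but of the 565 positive ones only 194 were. Of the positive ones, 460 kept their sign without that pair, and none was called in the opposite direction. In the other direction, the calls were fewer when any 1 hBMEC-like pair was left out, with 44 to 69 positive and 13 to 25 negative, while leaving out hCEC replicate 1 gave 821 and 218 and leaving out hCEC replicate 3 gave 844 and 237. Among 57 called genes followed through these fits, 14 were called in each of the 6, and 52 were called without hCEC replicate 2.

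The calls differed by the level of a gene in each model. Of 9650 tested genes with a mean of at least 5 CPM in both models, 124 were positive and 230 negative, and 122 and 230 of these were called again without hCEC replicate 2. Of 1573 genes that reached 5 CPM in hBMEC-like cells alone, 260 were positive and 6 negative, and only 45 of the 260 were called again, while the totals without that pair were 137 and 167. Of 5951 genes under 5 CPM in both models, 164 were positive, of which 14 were called again. CDH1, the cadherin of epithelial adherens junctions, is an example. It had 859, 839 and 708 CPM in hBMEC-like cells at high shear and 703, 725 and 607 CPM at low shear, against 0, 0.0695 and 0 CPM in hCECs at high shear and 0, 7.97 and 0 CPM at low shear. Its interaction of 6.82 ± 0.40 on the log2 scale (± SE, adjusted p = 0.00358) rested on the single hCEC value of 7.97 CPM and was 0.25 with an adjusted p of 1 without that pair. The sodium channel subunit SCNN1A (5.72), the chemokine CXCL14 (5.67) and the secreted phosphoprotein SPP1 (6.13) were called with all pairs and not without hCEC replicate 2, where their interactions were 4.39 (adjusted p = 0.103), 4.41 (adjusted p = 0.212) and 1.23 (adjusted p = 1). LMOD1, a smooth muscle actin nucleator, had an interaction of 7.15 with all libraries and −1.07 without that pair (adjusted p = 1).

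**Figure D2:**
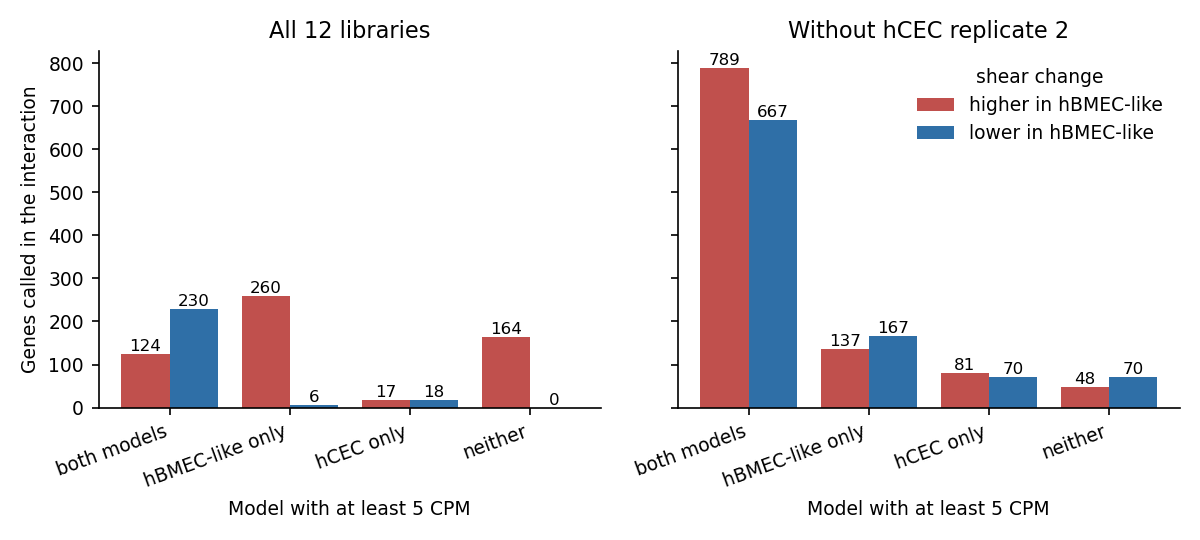
Genes called in the interaction (vertical axis), grouped by which model had a mean of at least 5 CPM (horizontal axis), in red where the shear change was more positive in hBMEC-like cells and in blue where it was more negative. With all 12 libraries (left) 260 positive calls lie among genes of hBMEC-like cells alone, and without hCEC replicate 2 (right) 137 do, against 789 among genes of both models.

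Across the 9647 genes of both models that each separate fit tested, the shear changes of the models were nearly unrelated, with a Pearson r of 0.106 and a Spearman rho of 0.109, and 0.114 and 0.127 without hCEC replicate 2. These are descriptions across genes, which are not independent, and the models share no library. The spread of the log2 changes was 0.16 (SD) in hBMEC-like cells and 0.37 in hCECs. In all, 141 genes were called in both models, which is 5.72% of the hBMEC-like calls and 29.1% of the hCEC calls. Of these, 82 rose in both, 11 fell in both, 32 rose in hBMEC-like cells and fell in hCECs, and 16 fell in hBMEC-like cells and rose in hCECs. Without hCEC replicate 2, 582 genes were called in both (23.6% of the hBMEC-like calls and 27% of the hCEC calls), of which 235 rose in both, 108 fell in both, 155 rose in hBMEC-like cells and fell in hCECs, and 84 did the reverse. With all libraries, the interaction was called for all but 1 of the genes that went opposite ways (47 genes) and for 36 that went the same way, each of which rose in both models and more so in hCECs. Without hCEC replicate 2, it was called for 239 genes that went opposite ways and for 127 that went the same way, 101 with a negative and 26 with a positive interaction, and 24 of the positive ones fell in both models. Genes that rose in hCECs and were not called in hBMEC-like cells made up 125 of the 254 negative interactions, and 520 of 974 without that pair.

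**Figure D3:**
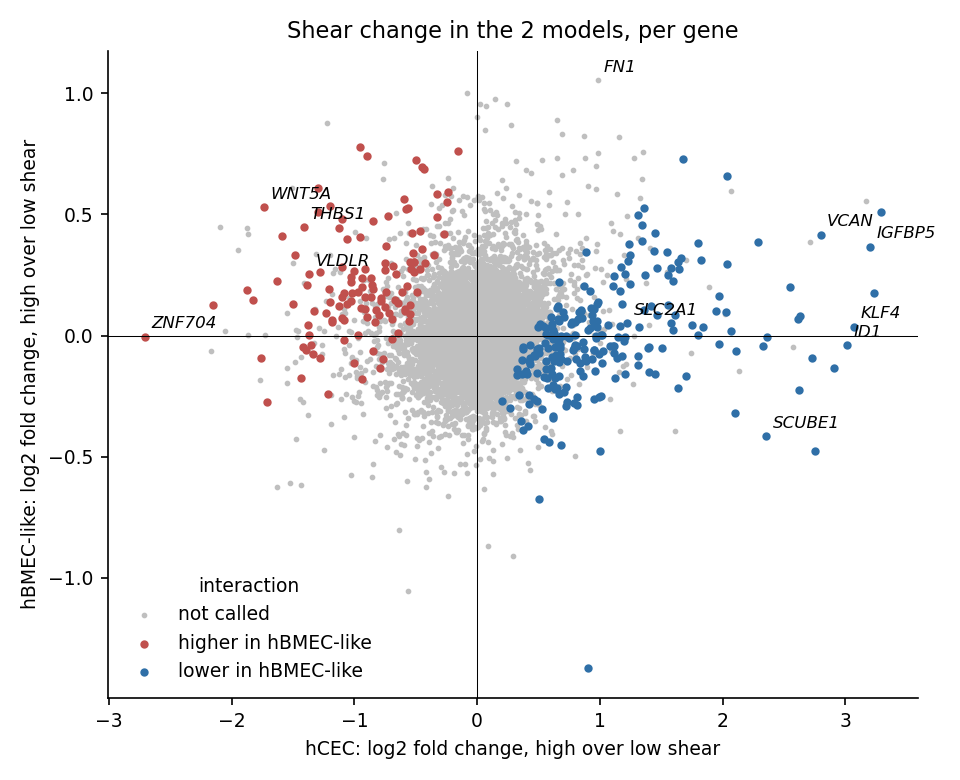
Log2 fold change from low to high shear in hBMEC-like cells (vertical axis) and in hCECs (horizontal axis) for the 9647 genes of at least 5 CPM in both models, colored where the interaction was called. The axes differ in scale, and the 230 negative calls (blue) lie mostly along the right of the horizontal axis, with KLF4 and ID1 beyond 3 in hCECs and close to 0 in hBMEC-like cells.

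Of KLF4 and KLF2, transcription factors that flow is known to induce, only KLF4 had a called difference between the models. KLF4 had 14.6, 15.9 and 13.1 CPM in hBMEC-like cells at high shear and 14.6, 13.9 and 14.2 CPM at low shear, against 63.9, 55.3 and 62.5 CPM in hCECs at high shear and 6.82, 9.98 and 4.88 CPM at low shear. The hBMEC-like groups overlapped, while in hCECs every high-shear value was above every low-shear value. The log2 change was 0.04 ± 0.10 in hBMEC-like cells (adjusted p = 0.860) and 3.07 ± 0.22 in hCECs (adjusted p = 0.000393), and the interaction was −3.11 ± 0.30 (adjusted p = 0.00418). KLF2 behaved otherwise on this scale. It had 1.49, 0.661 and 1.75 CPM in hBMEC-like cells at high shear and 0.185, 0.322 and 0.0823 CPM at low shear, against 411, 383 and 410 CPM in hCECs at high shear and 92.8, 85.9 and 84 CPM at low shear. KLF2 rose in both models, by 2.72 ± 0.60 in hBMEC-like cells (adjusted p = 0.00215) and by 2.13 ± 0.16 in hCECs (adjusted p = 0.00048), and the interaction of 0.58 ± 0.53 was not called (adjusted p = 0.593). Its level in hBMEC-like cells was close to nil even at high shear, so the folds stood for very unequal amounts of RNA.

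Of 24 tested genes listed as induced by laminar flow, 10 had a negative interaction and none a positive one (median −0.71, against 0.04 over all genes tested), and without hCEC replicate 2 these were 13 and 2 of 23. Of 22 tested in hBMEC-like cells, 6 rose and 1 fell, and in hCECs 11 of 23 rose and none fell, whereas 16 rose and 3 fell without hCEC replicate 2. Beside these, 1.41% of all genes had a negative and 3.13% a positive interaction. Rises were 8.2% of all genes in hBMEC-like cells and 2.04% in hCECs, and falls 6.77% and 1.2%. PLPP3, a lipid phosphatase that degrades lysophosphatidic acid, had 44, 47.8 and 74 CPM in hBMEC-like cells at high shear and 47.1, 44.2 and 69.4 CPM at low shear, against 200, 196 and 210 CPM in hCECs at high shear and 68.8, 59.4 and 65.4 CPM at low shear. Its interaction was −1.61 ± 0.12 (adjusted p = 0.00212), and only the hCEC groups did not overlap. THBD, thrombomodulin, had an interaction of −1.83 ± 0.24 (adjusted p = 0.00878), with 1.09 to 1.75 CPM in hBMEC-like cells and a rise in hCECs of 1.66 ± 0.18. NOS3, the endothelial nitric oxide synthase, was at 8.41 to 15.8 CPM in hBMEC-like cells at high shear and 8.23 to 12.7 CPM at low shear, against 384 to 474 CPM in hCECs at high shear and 148 to 187 CPM at low shear, with an interaction of −0.99 ± 0.16 (adjusted p = 0.0173). SLCO2A1, a prostaglandin transporter, rose in both models, by 0.51 ± 0.06 in hBMEC-like cells and by 3.29 ± 0.44 in hCECs, and the difference of −2.71 ± 0.52 was called (adjusted p = 0.0351). TEK, the angiopoietin receptor, fell in hBMEC-like cells by 0.45 ± 0.08 and had a log2 change of 0.68 ± 0.16 in hCECs (adjusted p = 0.0649), with an interaction of −1.22 ± 0.17 (adjusted p = 0.012).

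The BMP targets ID1, ID2 and SMAD7 rose in hCECs and were not called in hBMEC-like cells. ID1, a helix-loop-helix repressor and direct BMP target, had the smallest interaction p of the genes at 5 CPM or more in both models. It had 416, 425 and 409 CPM in hBMEC-like cells at high shear and 424, 444 and 427 CPM at low shear, against 33.9, 32.6 and 40 CPM in hCECs at high shear and 4.15, 4.83 and 3.74 CPM at low shear. Every hBMEC-like value was above every hCEC value, and the groups of hBMEC-like cells overlapped (−0.04 ± 0.04, adjusted p = 0.54), whereas in hCECs it rose by 3.02 ± 0.18. The interaction was −3.14 ± 0.18 (adjusted p = 0.00119). The related ID2 (−1.73 ± 0.19, adjusted p = 0.00608) and SMAD7, the inhibitory SMAD (−2.09 ± 0.28, adjusted p = 0.0102), followed the same pattern, with rises of 1.75 ± 0.27 and 1.97 ± 0.24 in hCECs and changes of 0.04 ± 0.04 and −0.04 ± 0.06 in hBMEC-like cells. SMAD6, the other inhibitory SMAD, was at 151 to 204 CPM in hBMEC-like cells at high shear and 152 to 189 CPM at low shear, against 12.6 to 21 CPM in hCECs at high shear and 10.2 to 21.5 CPM at low shear, with no call in either model and an interaction of −0.16 ± 0.13 (adjusted p = 0.57). Over the 28 genes of BMP and TGF-beta signaling, 3 interactions were negative and 1 positive (median −0.04, against 0.04 over all genes), and 4 and 6 without hCEC replicate 2. Among all genes tested, 1.41% were negative and 3.13% positive, and 5.38% and 5.83% without that replicate. KLF4, ID1 and PLPP3 were called in each of the 6 fits without 1 pair. SMAD7, ID2, THBD, NOS3 and TEK were not called when any hBMEC-like pair was left out, with adjusted p-values up to 0.184, and SLCO2A1 not without hCEC replicate 1 either.

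The proximal promoters of 3 of these genes are shown because Krüppel-like factors such as KLF2 and KLF4 are known to bind the letters CCACCC or their reverse complement, GGGTGG. Of 17 flow-induced genes matched to RefSeq promoters (GRCh38.p14), 11 (64.7%) held these letters in the 250 bases before the start, on either strand, as did 9 of 18 cholesterol genes (50%), 11 of 26 genes of BMP and TGF-beta signaling (42.3%) and 30.4% of 27305 promoters in all. A match is a description of letters, not of binding. Each stretch is written 5′ to 3′ on the strand of the gene, with the match in capitals. That of ID1 is chr20:31605039-31605288 on the plus strand, that of PLPP3 is chr1:56579564-56579813 on the minus strand, and that of NOS3 is chr7:150993532-150993781 on the plus strand.
ID1: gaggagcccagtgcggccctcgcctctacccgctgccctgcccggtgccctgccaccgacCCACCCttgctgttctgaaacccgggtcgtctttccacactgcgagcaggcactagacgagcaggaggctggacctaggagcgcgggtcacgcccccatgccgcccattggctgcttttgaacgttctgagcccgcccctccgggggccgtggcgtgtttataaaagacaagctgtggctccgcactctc
PLPP3: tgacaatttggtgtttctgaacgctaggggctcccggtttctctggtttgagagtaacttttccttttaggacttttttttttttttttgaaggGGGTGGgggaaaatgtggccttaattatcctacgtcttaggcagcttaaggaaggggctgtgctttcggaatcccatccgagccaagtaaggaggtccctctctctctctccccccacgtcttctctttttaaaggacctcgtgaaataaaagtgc
NOS3: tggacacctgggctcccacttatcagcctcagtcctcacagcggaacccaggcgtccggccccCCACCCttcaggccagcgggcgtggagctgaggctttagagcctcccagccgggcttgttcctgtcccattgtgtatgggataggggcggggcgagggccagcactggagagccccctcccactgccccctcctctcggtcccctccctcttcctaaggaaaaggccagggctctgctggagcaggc
The matches begin 190, 156 and 187 bases before the start of ID1, PLPP3 and NOS3, and that of PLPP3 is the reverse complement.

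Several genes that flow is known to repress, and targets of YAP and TAZ, had positive interactions. THBS1, thrombospondin 1, had 97.2, 90.7 and 60.4 CPM in hBMEC-like cells at high shear and 71.8, 64.3 and 46.6 CPM at low shear, against 130, 115 and 119 CPM in hCECs at high shear and 323, 223 and 404 CPM at low shear. It rose in hBMEC-like cells by 0.45 ± 0.05, in each of the 3 pairs, and fell in hCECs by 1.41 ± 0.19 without overlap, so the interaction was 1.78 ± 0.20 (adjusted p = 0.00621). The YAP/TAZ targets CCN1 and CCN2, both secreted matricellular proteins, also rose in hBMEC-like cells (0.23 ± 0.06 and 0.41 ± 0.06) and fell in hCECs (−1.63 ± 0.33 and −0.96 ± 0.18), with interactions of 1.74 ± 0.27 (adjusted p = 0.015) and 1.28 ± 0.24 (adjusted p = 0.0333). CCN1 was at 114 to 183 CPM in hBMEC-like cells at high shear and 118 to 146 CPM at low shear, against 2.64 to 6.06 CPM in hCECs at high shear and 11 to 14.6 CPM at low shear. Its hBMEC-like groups overlapped, and pair 3 did not rise (log2 difference of −0.04). Of 17 genes listed as flow-repressed, whose membership was not checked against these cells, 3 had a positive interaction and 1 a negative one, and without hCEC replicate 2 there were 7 and 2. With all pairs, the negative one was ICAM1, the leukocyte adhesion molecule, which rose in hCECs by 1.94 ± 0.15 and was at 1.48 to 3.21 CPM in hBMEC-like cells, with an interaction of −1.89 ± 0.21 (adjusted p = 0.00569). Of 16 YAP/TAZ targets, 7 rose and none fell in hBMEC-like cells, whereas 2 rose and 3 fell in hCECs (4 and 4 without hCEC replicate 2), and 4 interactions were positive and 2 negative (5 and 3 without hCEC replicate 2). CCN1 and CCN2 belong to both the flow-repressed and the YAP/TAZ list and are counted in each. The shares over all genes were 3.13% positive and 1.41% negative interactions (5.83% and 5.38% without hCEC replicate 2). Rises made up 8.2% of all genes in hBMEC-like cells and 2.04% in hCECs, and falls 6.77% and 1.2%. THBS1 and CCN1 were not called when any 1 hBMEC-like pair was left out, nor CCN2, which was also lost without hCEC replicate 1 (largest adjusted p 0.15), and ICAM1 was lost without hBMEC-like replicate 1 or 2.

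**Figure D4:**
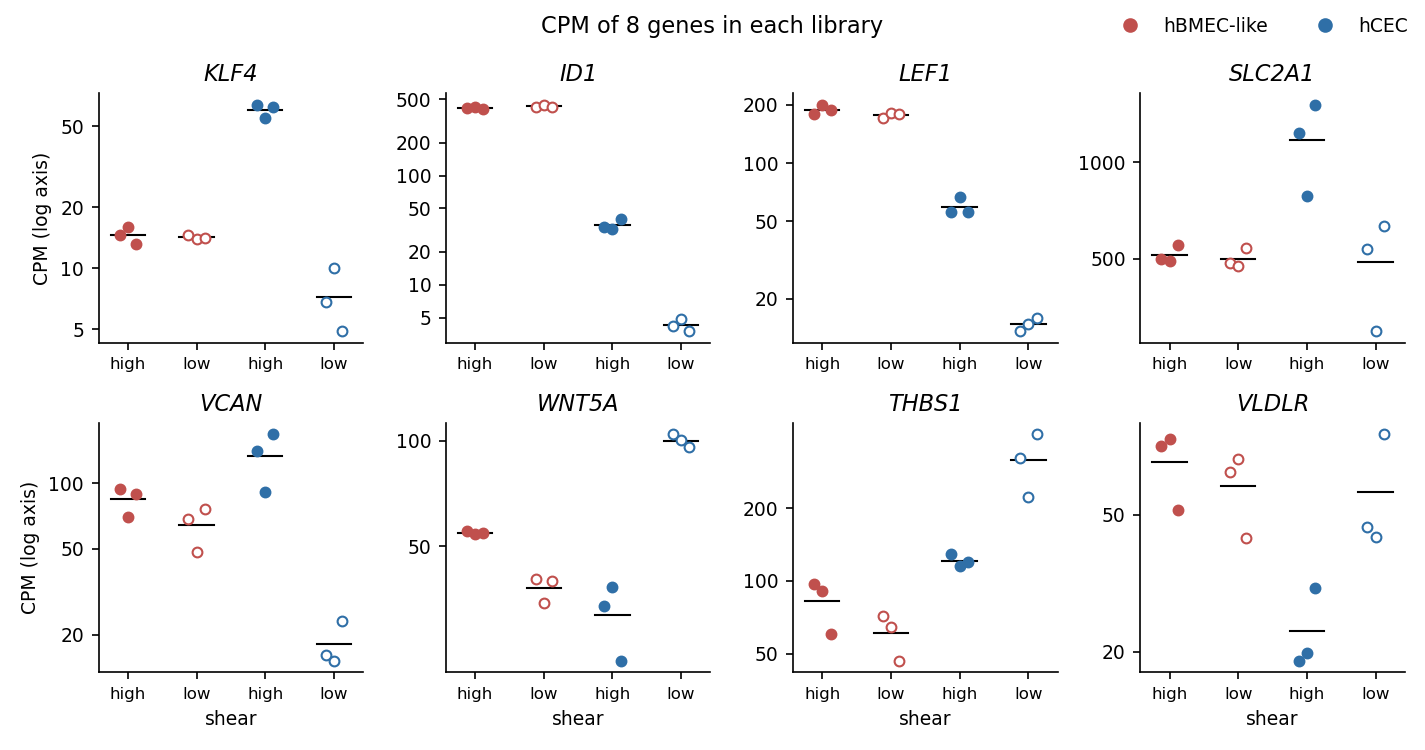
CPM of 8 genes (vertical axes, log scale) in each library at high shear (filled) and low shear (open), hBMEC-like in red and hCEC in blue, with black lines at the group means. KLF4, ID1, LEF1, SLC2A1 and VCAN separate by shear in hCECs alone, although VCAN rose in each hBMEC-like pair as well. WNT5A, THBS1 and VLDLR move opposite ways in the 2 models.

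Wnt genes were split. WNT5A, a noncanonical Wnt ligand, had 55.3, 54.1 and 54.7 CPM in hBMEC-like cells at high shear and 40.4, 34.5 and 39.8 CPM at low shear, against 33.9, 38.5 and 23.6 CPM in hCECs at high shear and 104, 100 and 95.8 CPM at low shear. Neither pair of groups overlapped, and the directions were opposite, with a rise of 0.53 ± 0.06 in hBMEC-like cells, a log2 change of −1.74 ± 0.15 in hCECs and an interaction of 2.19 ± 0.18 (adjusted p = 0.00309). LEF1 had 178, 200 and 188 CPM in hBMEC-like cells at high shear and 172, 182 and 179 CPM at low shear, against 56.3, 66.8 and 55.9 CPM in hCECs at high shear and 13.5, 14.8 and 15.9 CPM at low shear. It rose in hCECs by 1.95 ± 0.13 and was not called in hBMEC-like cells (0.10 ± 0.04, adjusted p = 0.1045), and the interaction was −1.92 ± 0.13 (adjusted p = 0.00165). LRP5, a Wnt coreceptor, rose in hCECs by 1.20 ± 0.17, against −0.02 ± 0.04 in hBMEC-like cells, with an interaction of −1.29 ± 0.14 (adjusted p = 0.00595). AXIN2, a feedback target of canonical Wnt signaling, had no call in either model, with an interaction of 0.31 ± 0.14 (adjusted p = 0.299), and without hCEC replicate 2 it fell in hCECs (−0.52 ± 0.09) and the interaction of 0.51 ± 0.09 was called (adjusted p = 0.00179). Of 23 Wnt genes, 4 interactions were positive and 2 negative, and without hCEC replicate 2 there were 3 and 4. The shares of all genes tested were 3.13% and 1.41%, and 5.83% and 5.38% without that replicate. WNT5A and LEF1 were called in each of the 6 fits without 1 pair, and LRP5 was not when any 1 hBMEC-like pair was left out (largest adjusted p 0.0834).

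Of 29 genes of the extracellular matrix in hBMEC-like cells, 16 rose and 2 fell, and in hCECs 2 of 28 rose and 3 fell (6 and 8 without hCEC replicate 2), while 4 interactions were positive and 2 negative of 30 (10 and 5 without hCEC replicate 2). Over all genes, 8.2% rose and 6.77% fell in hBMEC-like cells, and 2.04% rose and 1.2% fell in hCECs. Positive interactions were 3.13% of all genes and negative ones 1.41% (5.83% and 5.38% without hCEC replicate 2). VCAN, the proteoglycan versican, had 94.2, 69.6 and 89 CPM in hBMEC-like cells at high shear and 68.3, 48 and 75.8 CPM at low shear, against 141, 91.6 and 168 CPM in hCECs at high shear and 16.1, 15.1 and 23.3 CPM at low shear. It rose in both models, by 0.42 ± 0.06 in hBMEC-like cells and by 2.80 ± 0.16 in hCECs, and the difference was −2.46 ± 0.16 (adjusted p = 0.00165), called in each of the 6 fits without 1 pair. FN1, fibronectin, had similar estimates in both. It had 8853, 7805 and 5696 CPM in hBMEC-like cells at high shear and 3912, 3824 and 3009 CPM at low shear, against 3692, 3363 and 3658 CPM in hCECs at high shear and 2044, 1331 and 1887 CPM at low shear. Its log2 change was 1.05 ± 0.04 in hBMEC-like cells and 0.98 ± 0.23 in hCECs (adjusted p = 0.0638), and the interaction was −0.01 ± 0.20 (adjusted p = 1), a range wide enough to hold a difference in either direction.

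The fibrillar collagen genes COL1A1 and COL3A1 had positive interactions at very unequal levels. With LUM, they were the only 3 of the 9 mesenchymal markers with a positive interaction, beside 3.13% of all genes tested. The other mesenchymal markers, a fibrillar collagen gene among them, were not called. COL1A1 had 2874, 2867 and 3250 CPM in hBMEC-like cells at high shear and 2389, 2761 and 2807 CPM at low shear, against 1.44, 9.56 and 5.38 CPM in hCECs at high shear and 4.19, 59.2 and 12.1 CPM at low shear. Within each pair of hCECs the high-shear value was the lower, but replicate 2 was the highest at both levels. COL3A1 was also highest in replicate 2 (47.8 CPM at high and 112 CPM at low shear). Both genes are members of the mesenchymal sum, so they are not evidence separate from it. The interaction of COL1A1 was 2.02 ± 0.36 (adjusted p = 0.0273) and that of COL3A1 1.09 ± 0.18 (adjusted p = 0.0182), and without hCEC replicate 2 they were 1.51 ± 0.13 and 1.04 ± 0.08, both called. LUM, the proteoglycan lumican, rose in hBMEC-like cells by 0.60 ± 0.04 and was at 1.81 to 7 CPM in hCECs, where it was not called (−1.06 ± 0.48), with an interaction of 1.57 ± 0.17 (adjusted p = 0.00569). IGFBP5, which binds insulin-like growth factors in the matrix, had 262, 250 and 166 CPM in hBMEC-like cells at high shear and 188, 153 and 180 CPM at low shear, against 624, 317 and 1520 CPM in hCECs at high shear and 90.4, 64.7 and 54.7 CPM at low shear. It rose in both models, by 0.37 ± 0.08 in hBMEC-like cells with overlapping groups and by 3.20 ± 0.46 in hCECs without overlap, and the interaction of −2.91 ± 0.63 was just inside the threshold (adjusted p = 0.0493). ADAMTS1, a matrix protease that cleaves versican, was similar (−1.90 ± 0.33, adjusted p = 0.0238). COL1A1, COL3A1 and LUM were not called when any 1 hBMEC-like pair was left out, and IGFBP5 and ADAMTS1 not without hCEC replicate 1 either (largest adjusted p 0.227).

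Genes of cholesterol synthesis rose in both models, and where the difference was called the rise was larger in hCECs. SREBF2 encodes SREBP2, the factor that switches on these genes when membrane sterol is low. In hBMEC-like cells 22 of 25 genes rose and in hCECs 21 of 24, and none fell. The median log2 change was 0.26 in hBMEC-like cells and 0.89 in hCECs, beside medians of −0.0041 and −0.019 over all genes of each model. The interaction was negative for 13 of 25, and for 21 of 25 without hCEC replicate 2, and positive for none (median −0.73). Negative interactions were 1.41% of all genes, and 5.38% without hCEC replicate 2, and rises 8.2% in hBMEC-like cells and 2.04% in hCECs. STARD4, a carrier of cholesterol inside the cell, had 33.8, 34.1 and 31.2 CPM in hBMEC-like cells at high shear and 26.9, 28.7 and 26.8 CPM at low shear, against 83, 75.8 and 71.3 CPM in hCECs at high shear and 30.1, 24 and 25.9 CPM at low shear. The groups did not overlap in either model, the rises were 0.28 ± 0.07 and 1.46 ± 0.12, and the interaction was −1.26 ± 0.11 (adjusted p = 0.00336). INSIG1, which retains the SREBP complex in the endoplasmic reticulum, rose by 0.50 ± 0.05 in hBMEC-like cells and by 1.31 ± 0.14 in hCECs, with an interaction of −0.89 ± 0.13 (adjusted p = 0.0129). The desaturase genes FADS2 and SCD had interactions of −1.38 ± 0.22 (adjusted p = 0.0173) and −1.17 ± 0.20 (adjusted p = 0.0226). In hCECs, replicate 2 had the lowest low-shear value of STARD4, INSIG1, FADS2 and SCD, and the differences were smaller without it. None of these 4 genes was called when any 1 hBMEC-like pair was left out, with adjusted p-values up to 0.238.

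**Figure D5:**
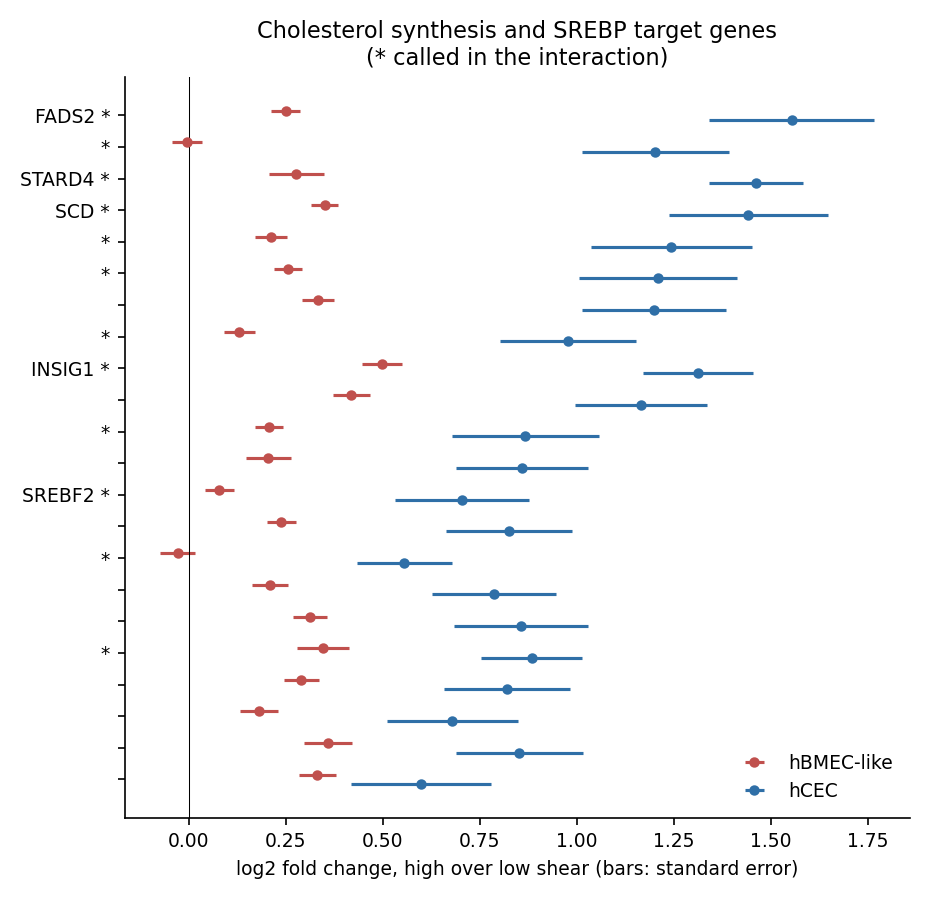
Log2 fold change from low to high shear (horizontal axis) with its standard error for 22 genes of cholesterol and fatty acid synthesis (rows, with the names of the 5 described in the text), hBMEC-like in red and hCEC in blue. Each of the 22 hCEC points lies to the right of its hBMEC-like point, and asterisks mark the 12 interactions called among them.

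The sterol response element that SREBP factors are known to bind was searched as TCACNCCAC on both strands of the 250 bases before the start. It was found in 1 of 18 matched genes of this group, SREBF2 itself, and in 0.875% of the 27305 promoters. The stretch is shown because it holds that match, in capitals, 133 bases before the start, at chr22:41832855-41833104 on the plus strand (RefSeq, GRCh38.p14).
SREBF2: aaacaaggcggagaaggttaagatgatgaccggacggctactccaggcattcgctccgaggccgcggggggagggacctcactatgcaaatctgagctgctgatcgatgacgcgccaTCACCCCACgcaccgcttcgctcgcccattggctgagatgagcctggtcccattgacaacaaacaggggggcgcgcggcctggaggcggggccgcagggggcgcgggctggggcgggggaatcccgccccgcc
SREBF2 had an interaction of −0.70 ± 0.15 (adjusted p = 0.0449), and was called neither in hBMEC-like cells (0.08 ± 0.04, adjusted p = 0.173) nor in hCECs (0.70 ± 0.17, adjusted p = 0.0753). The interaction was called without hCEC replicate 2 and lost when any other pair was left out (largest adjusted p 0.375).

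Of 30 genes of the cell cycle in hBMEC-like cells, 14 fell and 4 rose, and in hCECs 2 of 29 rose and none fell, while 3 interactions were negative and none positive. Without hCEC replicate 2, 17 interactions were negative and 10 genes rose and 1 fell in hCECs. Over all genes tested, 8.2% rose and 6.77% fell in hBMEC-like cells, and 2.04% rose and 1.2% fell in hCECs. Negative interactions made up 1.41% of all genes, and 5.38% without hCEC replicate 2. TOP2A, a topoisomerase of dividing cells, had 533, 553 and 635 CPM in hBMEC-like cells at high shear and 646, 610 and 677 CPM at low shear, against 19.8, 19.3 and 11.8 CPM in hCECs at high shear and 5.13, 11.6 and 3.23 CPM at low shear. It fell in each hBMEC-like pair (−0.16 ± 0.04) and rose in each hCEC pair (1.45 ± 0.29), and the interaction was −1.68 ± 0.31 (adjusted p = 0.028). CCND1, which drives entry into S phase, rose in both models, by 0.53 ± 0.04 in hBMEC-like cells and by 1.36 ± 0.14 in hCECs, with an interaction of −0.91 ± 0.14 (adjusted p = 0.014). MKI67, a marker of dividing cells, depended on hCEC replicate 2. It had 504.2 to 586 CPM in hBMEC-like cells at high shear and 537 to 597 CPM at low shear, against 22.4, 25.1 and 8.36 CPM in hCECs at high shear and 3.83, 19.2 and 1.38 CPM at low shear, and its interaction was −1.80 ± 0.54 (adjusted p = 0.12) with that replicate and −2.59 ± 0.12 (adjusted p = 1.53e-08) without it. In bulk RNA a change in the share of dividing cells and a change in RNA per cell cannot be told apart. TOP2A and CCND1 were not called when any 1 hBMEC-like pair was left out, and TOP2A not without hCEC replicate 1 or 3 (largest adjusted p 0.186).

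Among 36 genes of BBB transport, 5 interactions were negative and 2 positive, and without hCEC replicate 2 there were 9 of each. The shares of all genes tested were 1.41% and 3.13%, and 5.38% and 5.83% without that replicate. SLC2A1, the glucose transporter of brain endothelium, had 500, 493 and 552 CPM in hBMEC-like cells at high shear and 486, 474 and 542 CPM at low shear, against 1234, 788 and 1511 CPM in hCECs at high shear and 536, 297 and 631 CPM at low shear. It rose in hCECs by 1.23 ± 0.19 without overlap and was not called in hBMEC-like cells (0.05 ± 0.04, adjusted p = 0.387), and the interaction was −1.25 ± 0.13 (adjusted p = 0.00556). SLC6A6, the taurine transporter, had 30.9, 38.9 and 34.9 CPM in hBMEC-like cells at high shear and 28.1, 28.3 and 29.3 CPM at low shear, against 61.9, 48.5 and 60 CPM in hCECs at high shear and 13.4, 13.7 and 12.5 CPM at low shear. It rose in both models without overlap, by 0.30 ± 0.07 and 2.04 ± 0.14, with an interaction of −1.82 ± 0.16 (adjusted p = 0.00336) that was called in each of the 6 fits without 1 pair. SLC1A4, an exchanger of neutral amino acids, rose in hBMEC-like cells by 0.29 ± 0.09 and had a change of −0.68 ± 0.15 in hCECs (adjusted p = 0.052), with an interaction of 0.90 ± 0.16 (adjusted p = 0.027). SLC2A1 and SLC1A4 were not called when any 1 hBMEC-like pair was left out (largest adjusted p 0.179). The efflux pump gene ABCB1 was at 8.97 to 15.7 CPM in hBMEC-like cells and at 0.144 to 0.719 CPM in hCECs apart from 5.31 CPM in low-shear replicate 2, with no call.

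At the junctions, 3 positive interactions of 26 genes (CDH1, CLDN4 and CLDN6) were not called without hCEC replicate 2, and the 1 negative, LSR, was. Among all genes tested, 3.13% of interactions were positive and 1.41% negative. LSR, the receptor that organizes tricellular junctions, had 113, 111 and 118 CPM in hBMEC-like cells at high shear and 128, 116 and 131 CPM at low shear, against 66.9, 58.4 and 54.9 CPM in hCECs at high shear and 24, 18.6 and 26.9 CPM at low shear. It rose in hCECs by 1.31 ± 0.14 and in hBMEC-like cells had a log2 change of −0.12 ± 0.04 (adjusted p = 0.0703), and the interaction was −1.51 ± 0.17 (adjusted p = 0.0061), lost when any 1 hBMEC-like pair was left out (largest adjusted p 0.0736). CAV1, the coat protein of caveolae, was at 10.2 to 17.5 CPM in hBMEC-like cells at high shear and 7.97 to 11.4 CPM at low shear, against 141 to 205 CPM in hCECs at high shear and 164 to 433 CPM at low shear. Its interaction was 1.23 ± 0.30 (adjusted p = 0.0686) and 1.59 ± 0.13 (adjusted p = 1.94e-06) without hCEC replicate 2, whose low-shear library gave the lowest low-shear value, 164 CPM. PLVAP, which forms the diaphragms of fenestrae, had 0 counts in all 6 hBMEC-like libraries, which allows up to 0.114 CPM in the shallowest of them, so no difference between models could be estimated. It was at 4481 to 5151 CPM in hCECs at high shear and 1408 to 2878 CPM at low shear.

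Stress and metabolic genes differed one by one. DDIT4, an inhibitor of mTORC1 induced by several stresses, had 55, 50.5 and 61.8 CPM in hBMEC-like cells at high shear and 58.6, 49.5 and 68.7 CPM at low shear, against 373, 310 and 286 CPM in hCECs at high shear and 86.3, 51.5 and 79.6 CPM at low shear, with an interaction of −2.25 ± 0.20 (adjusted p = 0.00336). The hypoxia-responsive NDRG1 (−2.45 ± 0.36, adjusted p = 0.0132) and the lactate dehydrogenase gene LDHA (−0.89 ± 0.14, adjusted p = 0.0153) rose in hCECs and were not called in hBMEC-like cells, whereas PFKP, a phosphofructokinase, rose in hBMEC-like cells (0.20 ± 0.05) and fell in hCECs (−0.94 ± 0.13), with an interaction of 1.06 ± 0.16 (adjusted p = 0.0134). Of 20 genes of hypoxia and glycolysis, 2 interactions were positive and 2 negative (4 and 3 without hCEC replicate 2). All genes tested had 3.13% positive and 1.41% negative interactions (5.83% and 5.38% without hCEC replicate 2). IRF1, an interferon-responsive factor, rose in hCECs by 1.40 ± 0.15 against −0.15 ± 0.10 in hBMEC-like cells, and the interaction was −1.62 ± 0.18 (adjusted p = 0.00621). Of 19 genes of actin and smooth muscle contraction, 15 rose and 1 fell in hBMEC-like cells, while 1 of 14 rose and none fell in hCECs, where 2 rose and 4 fell without replicate 2. Over all genes, 8.2% rose and 6.77% fell in hBMEC-like cells. In hCECs 2.04% rose and 1.2% fell (7.83% and 6.66% without replicate 2). The 4 positive interactions of this list held 3 that were not called without hCEC replicate 2 (CNN1, LMOD1 and ACTG2). NDRG1, LDHA and PFKP were lost when any 1 hBMEC-like pair was left out, IRF1 without hBMEC-like replicate 1 or 3, and DDIT4 without hBMEC-like replicate 1 (largest adjusted p 0.188).

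Genes called in each model in opposite directions carry the interaction in its plainest form. VLDLR, a lipoprotein and reelin receptor, had 79.3, 82.9 and 51.7 CPM in hBMEC-like cells at high shear and 66.5, 72.3 and 42.7 CPM at low shear, against 18.8, 19.8 and 30.6 CPM in hCECs at high shear and 46.1, 43.1 and 85.4 CPM at low shear. The hBMEC-like groups overlapped but each pair rose (0.25 ± 0.05), each hCEC pair fell (−1.37 ± 0.13), and the interaction was 1.55 ± 0.12 (adjusted p = 0.00309). PSTPIP2, which bends membranes and binds actin, and ENPP1, which makes pyrophosphate from extracellular ATP, did the same, with interactions of 1.66 ± 0.14 (adjusted p = 0.00313) and 1.39 ± 0.13 (adjusted p = 0.00429). ENPP1 was even across replicates, with 30.4, 33 and 27.5 CPM in hBMEC-like cells at high shear and 25, 23.8 and 20.6 CPM at low shear, against 10, 10.3 and 11.1 CPM in hCECs at high shear and 20.6, 20.9 and 21.1 CPM at low shear. In the other direction, SCUBE1, a secreted and membrane-bound EGF-domain protein, had 72.4, 81.1 and 132 CPM in hBMEC-like cells at high shear and 122, 113 and 140 CPM at low shear, against 221, 169 and 198 CPM in hCECs at high shear and 43.9, 35.8 and 30.7 CPM at low shear. It fell in hBMEC-like cells (−0.41 ± 0.07), rose in hCECs (2.36 ± 0.16) and had an interaction of −2.86 ± 0.21 (adjusted p = 0.00212). FLJ30901 had −3.32 ± 0.28 (adjusted p = 0.00316), the RNA helicase gene MOV10 −1.02 ± 0.10 (adjusted p = 0.00475) and the tetraspanin gene TSPAN4 −0.93 ± 0.11 (adjusted p = 0.00621), each falling in hBMEC-like cells and rising in hCECs. VLDLR, PSTPIP2, SCUBE1 and FLJ30901 were called in each of the 6 fits without 1 pair, ENPP1 in all but that without hBMEC-like replicate 2 (adjusted p = 0.0501), and MOV10 and TSPAN4 in none of the 3 without an hBMEC-like pair.

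Among the largest differences of genes at 5 CPM or more in both models were genes called in hCECs and not in hBMEC-like cells. ZNF704, a zinc finger gene, had 85.3, 79.6 and 86.3 CPM in hBMEC-like cells at high shear and 90.3, 78.5 and 85.6 CPM at low shear, against 1.16, 2.33 and 1.4 CPM in hCECs at high shear and 7.87, 17.7 and 6.6 CPM at low shear, with the most positive interaction among them (2.64 ± 0.18, adjusted p = 0.00165). On the negative side, RGS16, a regulator of G protein signaling, had −3.12 ± 0.22 (adjusted p = 0.00212), EFNB1, the ligand ephrin-B1, −2.89 ± 0.32 (adjusted p = 0.00615) and MN1, a transcriptional coactivator, −2.49 ± 0.17 (adjusted p = 0.00166), with rises in hCECs of 2.91 ± 0.18, 2.73 ± 0.25 and 2.10 ± 0.15 and no call in hBMEC-like cells. EFNB1 was the only one of these 4 that was lost when any 1 hBMEC-like pair was left out (largest adjusted p 0.0652).

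A smaller set rose or fell in both models without a called difference. FLRT2, a guidance and adhesion protein, had 42.5, 44.9 and 28.5 CPM in hBMEC-like cells at high shear and 22.5, 23.8 and 19 CPM at low shear, against 146, 150 and 156 CPM in hCECs at high shear and 60.5, 67.1 and 66.9 CPM at low shear. No groups overlapped, the rises were 0.82 ± 0.08 and 1.15 ± 0.13, and the difference was −0.41 ± 0.13 (adjusted p = 0.133, and 0.047 without hCEC replicate 2). BHLHE40, a repressor of the circadian clock, and EPHA2, an ephrin receptor, also rose in both, with differences of −0.44 ± 0.13 (adjusted p = 0.111) and −0.63 ± 0.16 (adjusted p = 0.0759), and without hCEC replicate 2 that of EPHA2 was called (−0.43 ± 0.09, adjusted p = 0.00603). KIT, the receptor of stem cell factor, fell in both, by 0.58 ± 0.12 in hBMEC-like cells and by 0.86 ± 0.15 in hCECs, with a difference of 0.19 ± 0.21 (adjusted p = 0.657). GPCPD1, a phosphodiesterase of phospholipid turnover, and MAP2K6, a kinase upstream of p38, fell in both as well, with differences of 0.12 ± 0.11 (adjusted p = 0.598) and 0.16 ± 0.16 (adjusted p = 0.614). A difference that missed the threshold does not show equal changes.

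Of 875 genes that reached 5 CPM in hCECs alone, 17 interactions were positive (1.94%) and 18 negative (2.06%), beside 3.13% and 1.41% of all genes tested, and without hCEC replicate 2 there were 81 and 70. NTS, which encodes the peptide neurotensin, had 0.784, 0.86 and 0.697 CPM in hBMEC-like cells at high shear and 0.523, 0.751 and 1.1 CPM at low shear, against 49.7, 33.3 and 36.1 CPM in hCECs at high shear and 5.56, 2.58 and 1.18 CPM at low shear. It rose in hCECs by 3.79 ± 0.30, with an interaction of −3.89 ± 0.56 (adjusted p = 0.0124). LAMA4, a laminin chain of vessel walls, was under 2 CPM in hBMEC-like cells and not called in either model, with an interaction of −1.28 ± 0.21 (adjusted p = 0.0182). NTS and LAMA4 were lost when any 1 hBMEC-like pair was left out (largest adjusted p 0.218).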

How the data were processed

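RNA was taken from chips of hBMEC-like cells and hCECs after 72 h at high or low shear, with 3 replicates per group, and sequenced after polyA enrichment. The deposited values are whole-number counts of reads per gene, which the authors made by alignment with STAR to hg38 and counting with featureCounts, without normalization. Of 43388 gene lines, 6 genes without values were left out. Whether the counting used strand is not given in the sources used here, so overlapping genes and near-identical copies may share reads. The tables of the other models of the series, and any comparisons made by the authors, were not used here.

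The interaction was fitted with edgeR 4.0.16 in R 4.3.3 (quasi-likelihood F test, TMM normalization, filterByExpr at its defaults, 10 counts and 15 in total), with the replicates of each model as blocks, since the study analysed its samples as pairs. Calls within a model came from a separate fit per model with the same block. High- and low-shear libraries of the same number correlated best with each other in both models after removal of the group means (r of 0.0691 to 0.22 in hBMEC-like cells and 0.037 to 0.106 in hCECs). Benjamini-Hochberg adjustment ran over all genes of a fit, with 0.05 as the threshold of a call. The standard error is the absolute log2 change divided by the square root of F. CPM were computed with the TMM-adjusted library sizes of all 12 libraries, and they are compared within a gene, not between genes. P-values measure the spread of the shear change between differentiations of 1 line, since the block removes differences in level between replicates. The joint fit had a biological coefficient of variation of 0.301 over both models, and of 0.072 without hCEC replicate 2. An interaction p-value therefore does not rest on the spread of 1 model alone. Without an hBMEC-like pair there were 44 to 69 positive and 13 to 25 negative calls, so loss of a call there was general. The interaction fit was also run on simulated counts, with less spread in hCECs than in these data and changes only in genes well counted in both models. That run does not cover genes near absence in 1 model.

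Alternatives were DESeq2 1.42.0, limma 3.58.1 (voom with sample quality weights), other normalizations and filters, no block, and each pair left out. The members and the gene lists were chosen with earlier results of these data known. The genes named are those with the largest and smallest interactions and the smallest p among called genes of at least 5 CPM in both models whose pair differences did not overlap between models, those called in opposite directions or in the same direction in both models, those of at least 5 CPM in 1 model and under 1 CPM in the other, up to 4 members of each list with the smallest p, and genes that the study names, and the text gives a part of these. Some genes of the lists are counted but not reported here by name. NOS3, SLCO2A1, TEK, AXIN2, FN1, SREBF2 and MKI67 were chosen after their values were seen.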

Additional observations from a re-analysis of the deposited data

Results flagged for a closer look

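The response to shear differed between the models by the test of the difference itself. It was more positive in hBMEC-like cells for 565 genes and more negative for 254. Among the genes called in each model in opposite directions, 4 that rose in hBMEC-like cells and fell in hCECs had the smallest p, namely WNT5A (interaction of 2.19 on the log2 scale), PSTPIP2 (1.66), VLDLR (1.55) and ENPP1 (1.39). Among those that fell in hBMEC-like cells and rose in hCECs, these were FLJ30901 (−3.32), SCUBE1 (−2.86), MOV10 (−1.02) and TSPAN4 (−0.93).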

How the results depend on the processing

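The numbers of calls depended on the processing, while the 57 called genes followed kept their directions, apart from LMOD1, whose interaction of 7.15 was −1.07 without hCEC replicate 2 and up to 7.73 without another pair. Without the replicate block, the interaction was called for 48 genes in the positive and 93 in the negative direction, shear raised 7 and lowered 0 genes in hBMEC-like cells (2201 genes had an unadjusted p under 0.05), and raised 174 and lowered 87 in hCECs. When 1 pair was left out, the interaction gave 44 to 1055 positive and 13 to 974 negative calls, hBMEC-like cells 794 to 1141 rises and 636 to 899 falls, and hCECs 213 to 1168 rises and 127 to 993 falls. The highest values for the interaction and for hCECs were those without hCEC replicate 2. Library totals alone gave 862 positive interactions and 325 falls in hCECs, and moved the median interaction over all genes to 0.20, against 0.04. Without a filter on low counts there were 116 negative interactions, and 175 rises and 92 falls in hCECs. The filter passed in each model gave 228 positive interactions. With limma voom and sample quality weights there were 766 negative interactions, and 1082 rises and 1100 falls in hCECs, and with DESeq2 there were 641 falls in hBMEC-like cells and 517 rises and 376 falls in hCECs. The cause of these shifts was not tested. The counts under the other settings were within 1.5 times those reported. Of 57 called genes followed, 32 kept their call under all normalizations and filters that tested them, and 13 under every alternative that tested them. A gene that a filter removed had no value there and was not counted as losing its call. The 32 can therefore hold genes near absence in 1 model.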
